A study of Mus musculus with 4 samples.

Results

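Actin filaments carry tension inside mesenchymal cells, and the genes that build them are a classic target set of serum response factor (SRF). SRF is a DNA-binding protein that recognises the CArG box. Its cofactors encoded by Mrtfa and Mrtfb, of the myocardin family, enter the nucleus when actin monomers are taken up into filaments. Acta2, Tagln, Cnn1 and Myl9 belong to the contractile programme of smooth muscle and of myofibroblast-like cells, whereas Actb, Actg1, Vcl and Tpm1 serve the cytoskeleton of many cell types.

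The set described here holds 10 genes, namely Srf itself, Acta2, Actb, Actg1, Tagln, Cnn1, Myl9, Vcl, Tpm1 and Pdlim5. Their ATAC-seq peaks were taken as every peak that overlapped the span from 5 kb upstream to 5 kb past the end of a gene. This gave 74 of 128055 peaks. Of these, 11 were promoter peaks, with a start of a protein-coding transcript no more than 1 kb away. Another 49 overlapped a gene body in whole or in part, 4 lay upstream and 10 downstream. Pdlim5 alone contributed 38 peaks, Vcl 9 and Acta2 7, while Actb had 1.

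ATAC-seq measures how easily the Tn5 transposase cuts DNA, and it was run on mesenchymal stem cells (MSCs) from bones of C57BL/6N mice aged 3 to 5 months, with 50000 cells per library. All cells were first grown at 2% O2 and sorted for Sca-1 and PDGFRa, after which one portion stayed at 2% O2 (hypoxia) and another was moved to 21% O2 (normoxia). There were 2 libraries per group. The study calls them independent experiments, and the labels number them 1 and 2. Neither a transgene nor a mutation was involved, and culture oxygen is the only difference between the groups that the labels give. The libraries measure accessibility and not expression.

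The library totals ran from 26680936 to 29965523 reads. Nuclear peaks held 49.2% and 53.2% of the reads in hypoxia against 31.0% and 35.2% in normoxia. Mitochondrial peaks held 7.77% and 9.13% against 1.50% and 2.34%. The deposited signal of a peak is its read number scaled to the library total and is not divided by peak width. A library with fewer of its reads in peaks therefore has lower deposited signals on the whole. Fold changes are given below after scaling by relative log expression (RLE) size factors, which move the median log2 change of all peaks from -0.44 as deposited to -0.0040. With equal totals over peaks that median was 0.26. A smaller number of cells with a site open and fewer cuts per cell cannot be told apart in such bulk libraries.

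The promoters of marker genes were used to check the cell type. All 6 sorted or mesenchymal markers (Pdgfra, Ly6a, Pdgfrb, Eng, Nt5e and Thy1) had a promoter peak, with a summed signal of 896 to 909 in hypoxia and 521 to 599.7 in normoxia. Of the blood markers, Ptprc, Cd79a, Itgam and Cd3e had none, and Spi1 had a weak one that read 14.9 and 10.2 at 2% O2 and 7.87 and 13.0 at 21% O2. Endothelial markers had a promoter peak at 3 of 4 genes (not at Cdh5) and summed to 58.5 to 96.6. All 6 smooth muscle and pericyte markers (Myh11, Rgs5, Cspg4, Mcam, Notch3 and Des) had one, with 404 and 448 at 2% O2 and 265 and 298 at 21% O2. The 3 skeletal muscle markers had no promoter peak. An open promoter does not show that a gene is expressed, and the part of other cell types in the results below was not tested.

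The CArG box is the feature that ties these genes to SRF, so boxes near the start sites are shown first. The box was searched as CC, then 6 bases that are each A or T, then GG. This pattern is its own reverse complement, so 1 search covers both strands. A box lay within 500 bases upstream of a start in 8 of the 10 genes (80.0%), against 969 of 21866 protein-coding genes (4.43%). Tpm1 and Pdlim5 had no box in this window. The set was assembled as SRF targets, so the share describes the choice of genes. Each line gives 50 bases 5′ to 3′ on the strand of the gene, from the RefSeq copy of GRCm38.p6, the assembly known as mm10, with the box in capitals.
Srf, chr17:46556215-46556264, minus strand, box 69 bases before the start: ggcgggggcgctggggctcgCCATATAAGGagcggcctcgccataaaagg
Srf, chr17:46556195-46556244, minus strand, 49 bases before the start: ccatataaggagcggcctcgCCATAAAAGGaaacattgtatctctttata
Actg1, chr11:120348556-120348605, minus strand, 43 bases before the start: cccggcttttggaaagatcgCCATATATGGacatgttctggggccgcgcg
Tagln, chr9:45936141-45936190, minus strand, 112 bases before the start: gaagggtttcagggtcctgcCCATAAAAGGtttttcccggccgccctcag
Myl9, chr2:156775283-156775332, plus strand, 117 bases before the start: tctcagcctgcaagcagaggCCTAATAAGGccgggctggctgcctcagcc
Vcl, chr14:20929151-20929200, plus strand, 227 bases before the start: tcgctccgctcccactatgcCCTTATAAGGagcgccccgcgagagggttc
Cnn1, chr9:22100106-22100155, plus strand, 66 bases before another start: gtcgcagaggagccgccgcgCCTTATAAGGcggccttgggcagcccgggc
Acta2, chr19:34254268-34254317, minus strand, 67 bases before another start: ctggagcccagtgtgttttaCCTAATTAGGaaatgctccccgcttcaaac

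Srf carries a pair of neighbouring boxes in front of its own start. For Cnn1 and Acta2 the box lies inside the gene, 910 and 1293 bases past the first start, and counts as upstream only for a transcript that starts further in. A consensus box was present in 10 of the 11 promoter peaks (90.9%), the exception being the weaker of the 2 at Actg1. Among all 17661 promoter peaks 12.0% held one. Promoter peaks of the set were wider than usual, with a median of 6100 bp against 2200 bp, and per kb of sequence they held 0.235 boxes against 0.0488. All the boxes printed above lie in peaks that were open in both groups. A match describes the letters of the sequence and does not show that SRF was bound.

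**Figure D1:**
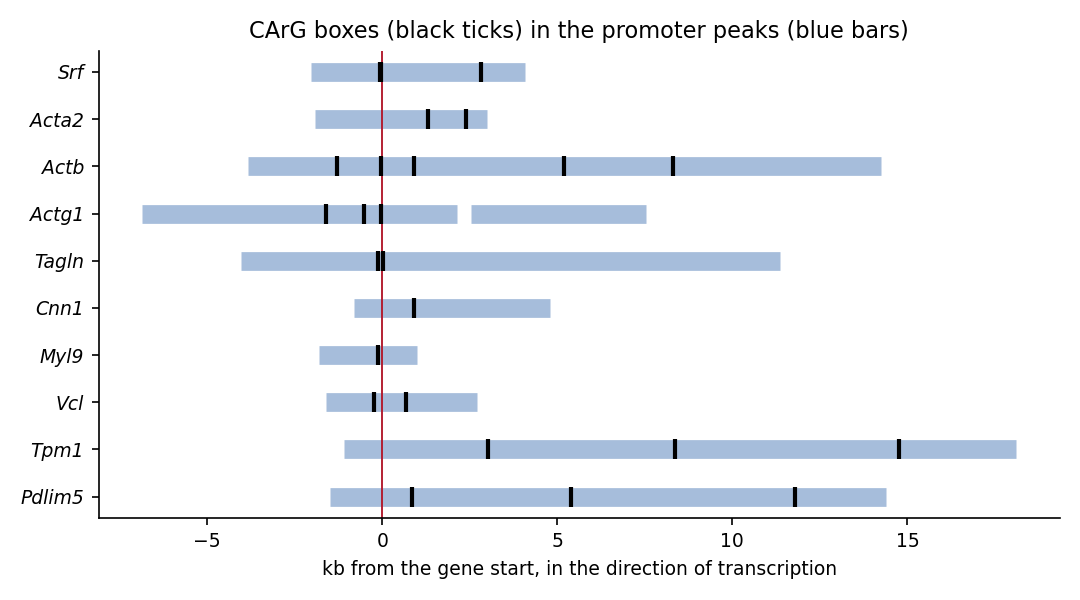
Position of CArG boxes (black ticks) in the promoter peaks (blue bars) of the 10 genes, in kb from the first gene start (red line). In Srf, Actg1, Tagln, Myl9 and Vcl at least 1 box stands just before the start, whereas in Tpm1 and Pdlim5 all lie past it.

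Promoter accessibility was compared first. On the values as deposited, the signal in normoxia was below that in hypoxia at all 11 promoter peaks, with no overlap between the groups. This share does not set the genes apart, since 86.1% of all promoter peaks and 59.5% of all peaks showed the same order. After RLE scaling, 0 of the 11 promoter peaks were called at a false discovery rate (FDR) under 0.01 in limma. Over all promoter peaks, 16.7% were called lower in normoxia and 0.442% higher. All 11 lay in the strongest decile of all peaks by mean signal, where 28.4% were called lower and 0.547% higher. At an unadjusted p under 0.05, 5 of the 11 were lower and 0 higher. The shares were 44.1% and 3.88% of all promoter peaks and 63.3% and 1.75% of that decile. edgeR on recovered reads and DESeq2 called 0 of the 11. The median log2 fold change, normoxia over hypoxia, was -0.16 at the promoters of the set, -0.27 over all promoter peaks and -0.33 over that decile. This sign and the calls rest on the scaling. As deposited, 9 of the 11 were called lower, whereas 2 were called higher with equal totals, 2 with quantile normalization and 3 with cyclic loess. Of all promoter peaks, 60.6% were called lower as deposited, and 2.63%, 0.60% and 1.26% were called higher under the other scalings in that order. Likewise the median of the 11 was -0.64 as deposited and then 0.12, 0.18 and 0.20, where that of all promoter peaks was -0.73 as deposited and then 0.010, -0.076 and -0.069.

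The smooth muscle genes Cnn1 and Myl9 stood closest to the threshold. Cnn1 encodes calponin, an actin-binding protein that restrains the myosin ATPase. Its promoter peak, chr9:22098401-22104000, read 117 and 123 at 2% O2 and 61.5 and 64.7 at 21% O2. The log2 fold change was -0.45 (SE 0.13, limma FDR 0.0193). Myl9 encodes the regulatory light chain of smooth muscle myosin, and its promoter peak (chr2:156773601-156776400) read 122 and 125 against 63.3 and 67.1. Its log2 fold change was -0.44 (SE 0.13, limma FDR 0.021). Neither was called, and with each library left out in turn the estimates ran from -0.48 to -0.42 and from -0.49 to -0.40.

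Acta2 encodes smooth muscle α-actin. Its promoter peak, chr19:34252601-34257500, read 149 and 195 at 2% O2 and 92.2 and 113 at 21% O2. Of the 4 libraries, hypoxia 2 stood highest, and the log2 fold change was -0.26 (SE 0.12, limma FDR 0.156). Tagln encodes transgelin, an actin-bundling protein. Its wide promoter peak (chr9:45924701-45940100, 15400 bp) also reaches into Pcsk7 and Sidt2 and read 359 and 349 against 225 and 246, a log2 change of -0.11 (SE 0.10, limma FDR 0.483).

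At Srf, the promoter peak (chr17:46552101-46558200) covers the paired boxes and read 354 and 389 at 2% O2 and 239 and 215 at 21% O2. The log2 fold change was -0.23 (SE 0.10, limma FDR 0.128). The library normoxia 2 decided much of it, since the estimate was -0.08 without that library (limma FDR 0.598) and -0.37 without normoxia 1 (limma FDR 0.00304, against 0.434 and 0.480 without hypoxia 1 and 2). Each of these fits holds 1 group at a single library, which is assumed to vary like the other group.

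At the nonmuscle actin genes no promoter peak passed the threshold after RLE scaling. Actb encodes β-actin, and its single peak (chr5:142892501-142910600, 18100 bp) also spans a start of the neighbouring gene Fbxl18. It read 769 and 795 at 2% O2 and 561 and 595 at 21% O2, a log2 change of 0.04 (SE 0.08, limma FDR 0.774). The call at Actb depends on the scaling, since the peak was called higher with equal totals (0.33, limma FDR 0.00115), quantile normalization (0.34, limma FDR 0.00249) and cyclic loess (0.59, limma FDR 2.32e-07), whereas it was at -0.44 as deposited (limma FDR 0.0204). Its FDR under the remaining alternatives ran from 0.545 to 0.997. Actg1 encodes γ-actin and has 2 promoter peaks. The stronger (chr11:120346401-120355400) read 323 and 329.8 against 187 and 199.6, with a log2 change of -0.28 (SE 0.10, limma FDR 0.0583). The weaker (chr11:120341001-120346000) read 167 and 205 against 116 and 134 and had a log2 change of -0.09. It covers no start and lies mostly past the 3′ end of the 2853-bp gene, its centre 5042 bases from the first start. It counts as a promoter peak because a transcript start lies no more than 1 kb away.

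The remaining promoters belong to genes that link or stabilise filaments. Vcl encodes vinculin, which couples integrins and cadherins to actin, and its promoter peak (chr14:20927801-20932100) read 214 and 218 at 2% O2 and 138 and 138 at 21% O2. Its log2 fold change was -0.16 (SE 0.11, limma FDR 0.341). Tpm1 encodes a tropomyosin that winds along the filament, and its promoter peak (chr9:67031301-67050500, 19200 bp) read 333 and 344 against 269.9 and 272. Its log2 fold change was 0.16 (SE 0.10, limma FDR 0.294). This peak too was called higher with equal totals, quantile normalization and cyclic loess (0.45, 0.51 and 0.59, with limma FDRs of 0.000881, 0.00127 and 2.36e-05), and it was at -0.32 as deposited. Its FDR under the alternatives other than these 3 ran from 0.0871 to 0.677. Pdlim5 encodes a PDZ and LIM domain protein of the actin-anchored Z-disc and stress fibre. Its promoter peak, chr3:142381301-142397200, read 383 and 399 against 251 and 269, a log2 change of -0.11 (SE 0.10, limma FDR 0.484).

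Levels can be set side by side between genes only per kb of peak. These peaks were 2800 to 19200 bp wide, and a value per kb is an average over that width. On that scale the Srf promoter had the highest value in hypoxia (60.9), followed by Vcl (50.2), Myl9 (44.1), Actb (43.2), Actg1 (36.3), Acta2 (35.1), Pdlim5 (24.6), Tagln (23.0), Cnn1 (21.5) and Tpm1 (17.6). The ranges of the 2 hypoxia libraries overlapped between Myl9 and Actb and between Actg1 and Acta2, so these neighbours had no order beyond their spread. In normoxia the order was the same except that Actb (31.9) stood above Myl9 (23.3) and Tpm1 (14.1) above Cnn1 (11.3). The normoxia ranges overlapped between Vcl and Actb, between Actg1 and Acta2 and between Pdlim5 and Tagln.

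**Figure D2:**
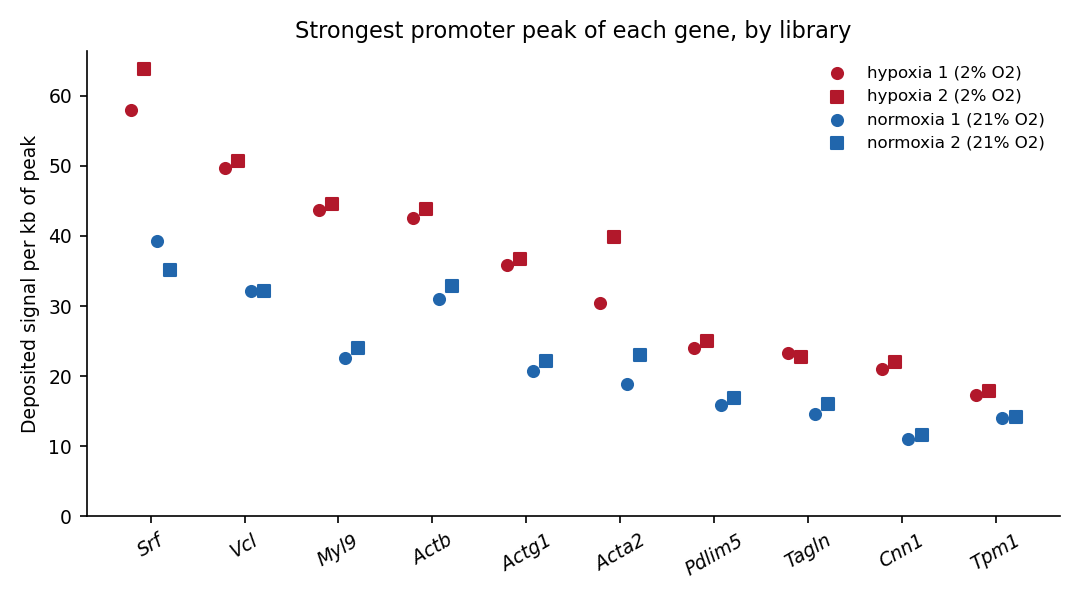
Deposited signal per kb of the strongest promoter peak of each gene, with 1 point per library (red hypoxia, blue normoxia; circle replicate 1, square replicate 2). Both normoxia points lie below both hypoxia points for every gene, and the gap is narrowest at Tpm1, from 17.4 and 17.9 to 14.1 and 14.2.

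Accessibility across the whole loci was compared next, and here peaks moved in both directions. Of the 74 peaks, 4 were called lower in normoxia and 7 higher at an FDR under 0.01, against 4.57% and 1.77% of all peaks. Before scaling, 49 of the 74 had both normoxia values under both hypoxia values and 4 had both above, where 59.5% and 6.94% of all peaks did so. All 7 rises were gene-body peaks by this overlap, in Vcl (3), Pdlim5 (3) and Tpm1 (1). Most of the Tpm1 peak lies past the end of the gene. All 4 falls lay in the 3′ part of Pdlim5 or past its end. Among gene-body peaks of all genes, 2.32% were called lower and 1.86% higher, whereas of the 49 in this set 3 were lower and 7 higher.

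The split depends on scaling. As deposited, 22 peaks of the set were called lower and 0 higher (1 at an unadjusted p under 0.05), and with equal totals over peaks 4 were lower and 12 higher. The shares of all peaks were 24.0% lower and 0.391% higher as deposited, and 0.837% and 6.84% with equal totals. The median log2 fold change over the 74 peaks was -0.11 after RLE scaling, while it was -0.57 as deposited and 0.12 with equal totals. Without hypoxia 1 or without hypoxia 2, limma called 0 of the 128055 peaks in the series, with 24119 and 24294 at an unadjusted p under 0.05, so these fits do not bear on which of the 74 are called. Without trend and robust variance estimation it called 0 of the 128055 as well (29293 at an unadjusted p under 0.05). By contrast, edgeR on recovered reads called the same numbers, 4 lower and 7 higher, against 5.70% and 2.54% of all peaks. DESeq2 called 2 and 3, against 4.42% and 0.463% of the 58526 peaks to which it gave an FDR.

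**Figure D3:**
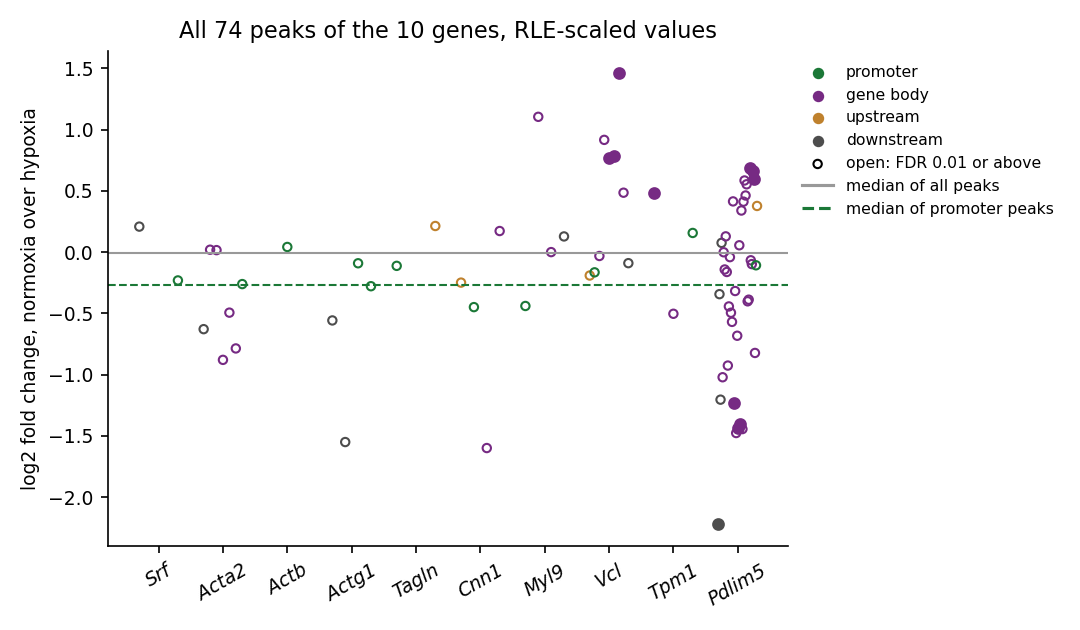
The log2 fold change, normoxia over hypoxia after RLE scaling, of each of the 74 peaks by gene, coloured by position, with filled points for peaks called at an FDR under 0.01. The grey line is the median of all peaks and the dashed line that of all promoter peaks; called points are found at Vcl, Tpm1 and Pdlim5.

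Strong gene-body peaks gave most of the rises. The strongest decile of all peaks by mean signal contained 17 peaks of the set, of which 1 was called lower and 4 higher, while 28.4% of that decile as a whole was lower and 0.547% higher. Of its gene-body peaks, 17.6% were called lower and 1.16% higher in the whole series, and in the set 0 of 5 were lower and 4 of 5 higher. The 2 groups of peaks are not alike in width, with a median of 15000 bp for the 5 against 3700 bp. The decile is taken on signal not divided by width, and peaks of matched width were not compared. These shares hold for RLE scaling. In the whole decile, promoter peaks included, 4.07% were lower and 3.60% higher with equal totals. They were 1.45% and 2.37% with quantile normalization and 2.23% and 3.76% with cyclic loess. Under each of these scalings 4 of the 5 gene-body peaks of the set were again called higher. The share among gene-body peaks of the decile was counted for RLE scaling only, so no like share stands beside these calls. As deposited 85.6% of the decile was lower and 0 of the 5 were called (0 higher and 1 lower at an unadjusted p under 0.05). The median log2 fold change of the 5 was 0.59, and it was 0.50 without hypoxia 1 and 0.76 without hypoxia 2. The fifth, at the 3′ end of Acta2 (chr19:34236401-34247500), overlaps Stambpl1 and read 153 and 159.8 at 2% O2 and 104 and 125 at 21% O2. Its log2 fold change was 0.02 (SE 0.12, limma FDR 0.936).

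In Vcl, a 15000-bp peak in the middle of the gene (chr14:20973001-20988000) read 120.3 and 128 at 2% O2 and 153 and 155 at 21% O2. As deposited, both normoxia libraries stood above both hypoxia libraries, an order that 6.94% of all peaks showed. The log2 change as deposited was 0.31 and was not called (limma FDR 0.157). After RLE scaling the peak rose by a log2 change of 0.78 (SE 0.12, limma FDR 4.9e-05). Relative to the Vcl promoter in the same library, it stood at 0.563 and 0.587 under hypoxia and at 1.11 and 1.12 under normoxia. These ratios are of summed signal. Per kb of peak, the promoter remained the more accessible in normoxia, at a mean of 32.1 against 10.2.

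Another Vcl intron peak (chr14:20968101-20971500) read 35.4 and 41.8 against 48.7 and 46.4 and rose by 0.77 on the log2 scale (SE 0.17, limma FDR 0.00205). A weak one (chr14:20993101-20993800) held only 7, 26, 25 and 39 reads across hypoxia 1 and 2 and normoxia 1 and 2. The log2 change of 1.46 (SE 0.36, limma FDR 0.00583) ranged from 0.77 to 2.11 with 1 library left out, the lowest without hypoxia 1 and the highest without hypoxia 2. Without normoxia 1 the first of these peaks was at 0.67 and no longer called, and without normoxia 2 the weak one was at 1.31 and no longer called.

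In Tpm1, the peak over the 3′ part of the locus (chr9:67011501-67031200, 19700 bp) read 298 and 308 at 2% O2 and 293 and 314 at 21% O2. Most of it lies past the gene end, which is at chr9:67022590. The groups overlapped as deposited, and after scaling the peak rose by 0.48 on the log2 scale (SE 0.10, limma FDR 0.00106). Within each library its signal was 0.894 and 0.896 of that of the Tpm1 promoter peak in hypoxia and 1.09 and 1.15 in normoxia.

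Pdlim5 changed in opposite directions along its 156107 bp. Near the start, a 15400-bp intron peak (chr3:142355301-142370700) read 180.5 and 228 at 2% O2 and 213 and 252 at 21% O2 and rose by 0.66 on the log2 scale (SE 0.11, limma FDR 0.000128). Beside the promoter, the peak chr3:142371901-142381200 read 75.4 and 109 against 94.1 and 103 and rose by 0.59 (SE 0.14, limma FDR 0.00373). The peak chr3:142330101-142333300 read 37.5 and 57.5 against 51.3 and 57.4 and rose by 0.69 (SE 0.17, limma FDR 0.00493). In these 3 peaks the groups overlapped as deposited, with hypoxia 1 the lowest library in each. Without hypoxia 2 the estimates were larger, up to 0.93 for the last, and without hypoxia 1 they were 0.54, 0.38 and 0.44. Without normoxia 2 the last was at 0.68 and just missed the threshold.

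Toward the 3′ end the falls were deeper. The peak chr3:142284001-142287700, which covers an exon, read 41.0 and 54.1 at 2% O2 and 13.9 and 14.0 at 21% O2 and fell by 1.23 on the log2 scale (SE 0.20, limma FDR 0.000122). The intron peak chr3:142288501-142289600 read 19.1 and 19.0 against 3.37 and 6.01, a log2 change of -1.44 (SE 0.30, limma FDR 0.00141). Next to it, chr3:142290901-142292300 read 20.5 and 23.5 against 6.75 and 4.34, a log2 change of -1.40 (SE 0.28, limma FDR 0.00114). In all 3 both normoxia libraries lay well under both hypoxia libraries. Without normoxia 1 the middle one of these was at -1.14 and no longer called. A stronger peak between the last pair, chr3:142289601-142290900, was not called and read 35.0 and 51.0 against 31.1 and 32.0 (log2 fold change 0.06).

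The deepest change lay 2590 bp past the end of Pdlim5, at chr3:142229301-142237000. Its signal was 309 and 315 at 2% O2 and 44.2 and 51.1 at 21% O2. This peak amounted to 0.808 and 0.791 of the Pdlim5 promoter at 2% O2, against 0.176 and 0.190 at 21% O2, and its log2 change was -2.22. It was the only member of the 4 called lower to reach the strongest decile of all peaks. The change went on outside the span. Of 7 further peaks in the next 10 kb, 5 were called lower, with log2 fold changes down to -2.04, and the next protein-coding gene on that side, Bmpr1b, starts 59876 bp from the peak. The data therefore do not tie this region to Pdlim5 rather than to Bmpr1b.

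Summed in steps of 20 kb from the start, the ratio of normoxia to hypoxia signal along Pdlim5 was 0.742 in the step with the promoter, 1.14 at 20 to 40 kb, 0.682 at 40 to 60 kb and 1.02 and 1.03 in the steps to 100 kb. It then dropped to 0.547 at 100 to 120 kb, 0.666 and 0.641 in the steps to 160 kb and 0.153 past the end. The median ratio over all peaks was 0.736. The step at 100 to 120 kb held 17 peaks, with a summed signal of 296 and 368 in hypoxia against 175 and 189 in normoxia. The peak caller had assigned 8 of these 17 to hypoxia only.

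**Figure D4:**
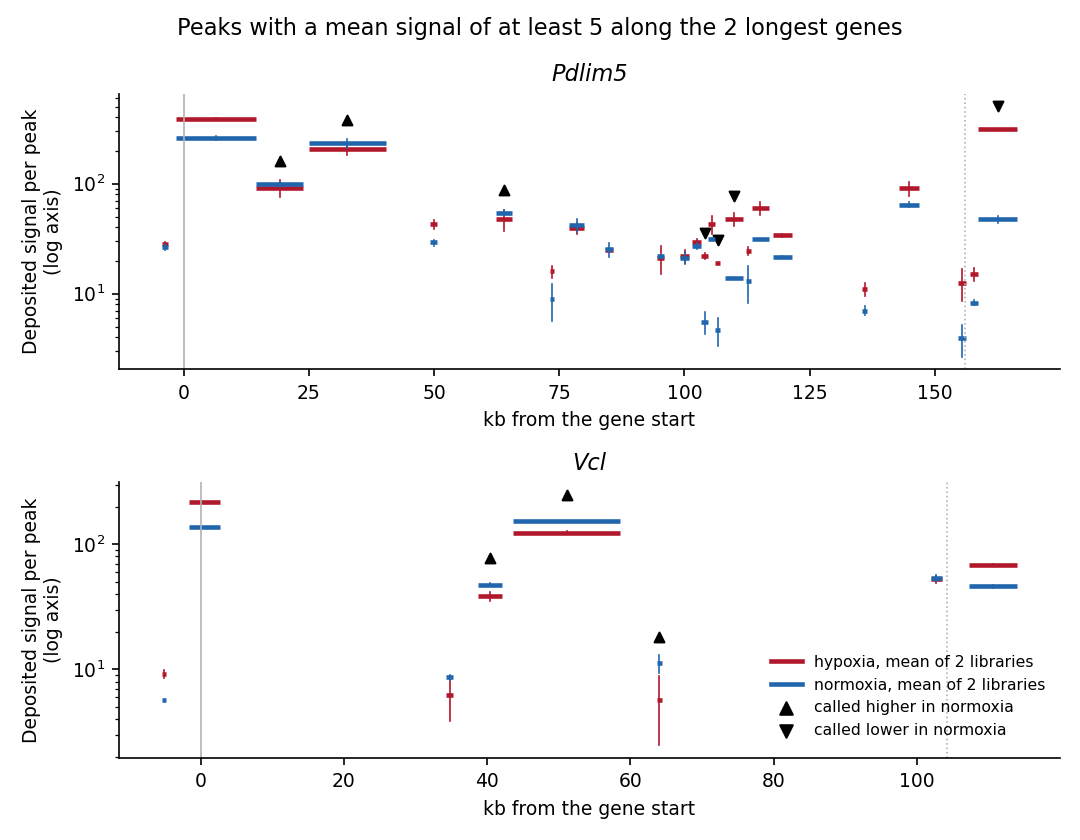
Deposited signal (log axis) of peaks with a mean signal of at least 5 along Pdlim5 and Vcl, by distance from the gene start in the direction of transcription. Horizontal bars span each peak at the group mean, vertical lines join the 2 libraries, the dotted line is the gene end and triangles mark called peaks. The blue bars lie at or above the red ones in the introns near the Pdlim5 start and in the middle of Vcl, and below them at both promoters and past the Pdlim5 end.

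The group labels of the peak caller were read as well. Of the 74 peaks it placed 54 in both groups and 20 in hypoxia alone (27.0%), while 6.84% of all peaks were hypoxia only. It placed 0 of the 74 in normoxia alone. The share of all peaks in normoxia alone was not counted, so this 0 does not set the genes apart. Of the 20, 14 belonged to Pdlim5, 3 to Acta2 and 1 each to Actg1, Cnn1 and Tpm1. Most were narrow and weak, with a median width of 300 bp, and 6 reached a mean signal of 5. The 4 peaks called lower were all among them. The label and the fold change were drawn from the same reads, so the one does not support the other.

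The balance between gene body and promoter does not change with 1 scaling factor per library, since it is taken within a library. Quantile normalization and cyclic loess also rescale by signal strength, and the ratios below are of deposited values. The median log2 fold change of the set's gene-body peaks was -0.04 after RLE scaling, against -0.16 at its promoters. It was 0.10 against 0.18 with quantile normalization and 0.11 against 0.20 with cyclic loess. Over the 10 genes together, gene-body peaks summed to 0.494 and 0.536 of the promoter signal in hypoxia and to 0.681 and 0.695 in normoxia. The groups did not overlap, and the exact permutation test gave the smallest p that 2 against 2 libraries allow (two-sided p = 0.333). By gene, the ratio went from 1.05 and 1.10 to 2.02 and 2.00 at Vcl, from 0.895 and 0.900 to 1.09 and 1.15 at Tpm1 and from 2.16 and 2.64 to 2.94 and 2.995 at Pdlim5. At Acta2 it went from 1.23 and 0.993 to 1.38 and 1.27, at Cnn1 from 0.717 and 0.488 to 0.817 and 0.938 and at Myl9 from 0.0983 and 0.0572 to 0.207 and 0.129. Each of these 6 genes was higher in both normoxia libraries, with the same smallest p of 0.333. At Cnn1 the gene-body signal came almost wholly from the peak chr9:22106801-22114000, with a mean of 62.0 against 1.84 for the other. That peak runs past the gene end and lies no more than 1 kb from a start of Elof1. At Tpm1 the gene-body signal came almost wholly from the long 3′ peak, with a mean of 303. Most of that peak lies past the gene end.

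This rise was general. Among 9794 protein-coding genes with both kinds of peak, the log2 of the ratio was higher in normoxia in 77.9%, with a median difference of 0.31 and quartiles of 0.04 and 0.58. Pdlim5 (0.31), Tpm1 (0.32) and Acta2 (0.26) sat near that median and Cnn1 (0.57) near the upper quartile. Vcl (0.90) and Myl9 (1.13) lay at percentiles 91.5 and 96.2 of these genes. For Myl9 the gene-body signal was small, at a mean of 10.2.

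**Figure D5:**
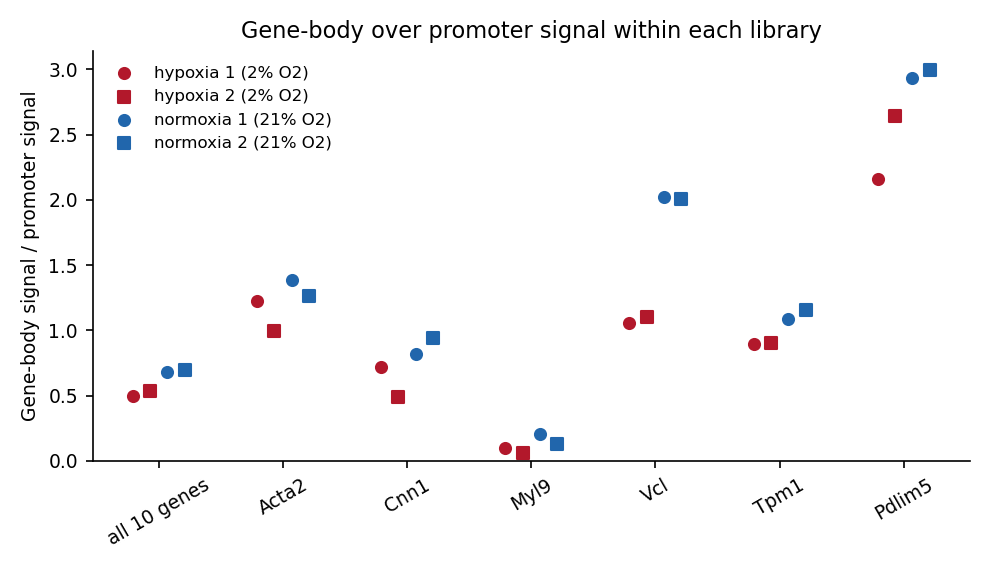
Ratio of summed gene-body signal to summed promoter signal in each library, for the 10 genes together and for the 6 that have gene-body peaks (red hypoxia, blue normoxia; circle replicate 1, square replicate 2). Both blue points lie above both red points in every column, with the widest relative gap apart from Myl9 at Vcl, from 1.08 to 2.01 on average.

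The promoter share of the locus, promoter signal over all signal in the span, followed the same order. It was 59.3% and 57.6% at 2% O2 and 55.3% and 54.9% at 21% O2 for the 10 genes together, a difference of -3.32 percentage points (exact permutation test, two-sided p = 0.333). It was -11.5 points at Vcl, from 41.1% ± 0.707 to 29.5% ± 0.264 (SD, n = 2 each), and -10.7 points at Myl9. At Pdlim5 the loss past the gene offset the gain in the introns, and the share was 24.5% and 21.9% against 23.4% and 23.1%, where the groups overlapped. At Actg1 it was 2.16 points higher in normoxia.

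Boxes also occurred in peaks that changed, and a few are shown because they lie far from the starts above. The long Vcl peak held 1 consensus box and the 2 strong Pdlim5 intron peaks that rose held 4. The Pdlim5 peak chr3:142284001-142287700, which fell, held 2, and the peak past the gene end held 0. The long Tpm1 peak held 3. Over all peaks 7.55% held a box, and 23.0% of the 74 did. The 74 were wider, with a median of 1500 bp against 1000 bp, and promoter peaks are among them. Per kb of sequence they held 0.141 boxes, against 0.0549 over all peaks. Letters, strand and build are as above, and the Tpm1 box printed lies past the end of the gene.
Vcl, higher in normoxia, chr14:20980022-20980071, plus strand: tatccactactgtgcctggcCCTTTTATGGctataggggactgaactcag
Pdlim5, higher in normoxia, chr3:142359128-142359177, minus strand: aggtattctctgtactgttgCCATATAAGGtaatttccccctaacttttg
Pdlim5, higher in normoxia, chr3:142380496-142380545, minus strand: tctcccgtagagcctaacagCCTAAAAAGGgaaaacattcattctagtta
Tpm1, higher in normoxia, chr9:67018884-67018933, minus strand: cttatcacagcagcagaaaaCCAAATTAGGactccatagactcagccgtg
Pdlim5, lower in normoxia, chr3:142286059-142286108, minus strand: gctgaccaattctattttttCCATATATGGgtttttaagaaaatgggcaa

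The Pdlim5 box at 36539 bases from the start repeats the CCATATAAGG of the Srf promoter. Boxes were thus found in peaks that rose, in a peak that fell and in promoters that were not called.

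The other genes of the pathway were read at their promoters only. For the SRF cofactors Mrtfa, Mrtfb and Myocd, 0 of 6 promoter peaks were called (2 lower and 0 higher at an unadjusted p under 0.05). Nearest to the threshold was 1 of the 2 peaks of Mrtfb. It read 100.5 and 96.9 at 2% O2 and 53.2 and 50.4 at 21% O2, a log2 change of -0.45 (SE 0.14, limma FDR 0.0314). Of 15 promoter peaks of 10 smooth and striated muscle genes, 1 was called lower and 0 higher. It belonged to Tpm2, which encodes β-tropomyosin, and read 225 and 235 against 112 and 128 (log2 fold change -0.46, SE 0.11, limma FDR 0.00539). Actc1, the cardiac actin gene, had no promoter peak.

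Among 39 promoter peaks of 23 cytoskeletal and focal adhesion genes, 6 were called lower and 1 higher. Tagln2, a nonmuscle relative of Tagln, read 708 and 742 at 2% O2 and 273 and 358 at 21% O2 and fell by 0.73 on the log2 scale (SE 0.09, limma FDR 4.08e-06). Myh10, the heavy chain of nonmuscle myosin IIB, fell by 0.61, Flnc, the actin cross-linker filamin C, by 0.53, Vasp, a filament elongation factor, by 0.50 and Zyx, the focal adhesion protein zyxin, by 0.38. The sixth was a weak peak at Fhl1. The peak called higher was that of Myl12b, a nonmuscle regulatory light chain, at 205 and 237 against 198 and 241 (log2 fold change 0.46, SE 0.11, limma FDR 0.00334). Of 8 promoter peaks of 7 actin dynamics genes, 1 was called lower, at the formin gene Diaph1 (log2 fold change -0.53, SE 0.13, limma FDR 0.00452), and 0 higher.

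Over the whole pathway list, 8 of 68 promoter peaks were called lower (11.8%) and 1 higher, with a median log2 fold change of -0.25. The corresponding values over all promoter peaks were 16.7%, 0.442% and -0.27.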

How the data were processed

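The members and gene lists were chosen with earlier results of these data known. Per the methods, the authors mapped reads to mm10 with Bowtie2, removed duplicates with Picard and called 1 peak set over both groups with chromstaR, which also gave each peak its group label. The deposited value per peak and library is named RPKM but is a signal not divided by peak width: all values (100% within 0.001 reads) were whole multiples of 1 step per library, and 1 read was worth 0.334 to 0.375. Whether these reads are fragments or positions is not known, so no counting interval is given. Genes came from GENCODE M21.

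From the deposited signal, log2(value + 1) after RLE scaling was tested with limma 3.58.1 in R 4.3.3 (lmFit, eBayes with trend and robust; two-sided; Benjamini-Hochberg over 128055 peaks; FDR under 0.01); this scale understates the change of low peaks. The RLE factors of hypoxia 1 and 2 were 1.13 and 1.23, those of normoxia 1 and 2 0.810 and 0.886. In the same order, a median peak of the set held 69.5, 83, 54 and 58.5 reads. edgeR 4.0.16 and DESeq2 1.42.0 on the recovered reads were alternatives, beside other scalings, pseudocounts of 0.1 and 5, a mean signal of at least 5, a span of 2 kb and each library left out. Ratios within libraries were compared with an exact permutation test. Peaks named in the text were, for each gene, the strongest promoter peak and the strongest other peak, and every called peak; the weaker Actg1 promoter peak, the uncalled Pdlim5 peak beside the called ones and the peaks past its end were added after their values were seen. Peaks near a start of another gene were kept and marked. The functions were tested on simulated data. The promoter of 1 blood marker gene and the sequence at 1 of the boxes are not reported here.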

Additional observations from a re-analysis of the deposited data

How the results depend on the processing

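With 2 libraries per group, calls depend on how variance is shared across peaks. The 4 lower and 7 higher calls became 22 and 0 as deposited and 4 and 12 with equal totals. They became 2 and 4 in edgeR on deposited values, which called 3.42% and 0.526% of all peaks. In DESeq2 they were 2 and 3, against 4.42% and 0.463% of the 58526 peaks to which it gave an FDR. At an FDR under 0.05 the set had 11 and 10, against 12390 and 6890 of all 128055. Without trend and robust estimation the set had 0 and 0. Without trend and robust estimation, or without either hypoxia library, no peak of all 128055 was called, so those fits say nothing of the set. With 1 library left out they ran from 0 to 6 and from 0 to 7. The median over the set, -0.11, was -0.57 as deposited, 0.12 with equal totals, 0.10 (quantile) and 0.12 (cyclic loess). The promoter median, -0.16, was -0.64, 0.12, 0.18 and 0.20 in the same order and from -0.19 to -0.11 with 1 library left out. Replicate numbers gave no pairing, as same-numbered libraries deviated from their group means with a correlation of 0.011. With the replicate block 6 peaks were called lower, the Cnn1 promoter peak among them (-0.45, limma FDR 0.00976, against 2.58e-05 to 0.371 under the other alternatives), and 7 higher. The promoter share is a ratio of deposited values within a library. Scaling by 1 factor per library, pseudocounts and the choice of test therefore cannot change it. It was not computed with quantile normalization or cyclic loess. The groups did not overlap, so leaving out 1 library cannot turn its direction either. The difference, -3.32 points, was -3.16 with only the strongest promoter peak and -6.77 without upstream and downstream peaks. Without Pdlim5, added after seeing the data, it was -5.91 points. Why the groups differ was not tested.

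Among the 27 named peaks, signs changed with scaling in peaks not called after RLE scaling. As deposited, the promoter peaks of Actb and Tpm1 were at -0.44 and -0.32, and the other strongest peaks of Srf, Acta2, Tagln, Cnn1 and Myl9 at -0.26, -0.46, -0.25, -0.30 and -0.34. In the order equal totals, quantile and cyclic loess, promoter values turned to 0.059, 0.15 and 0.20 (Srf), 0.028, 0.048 and 0.042 (Acta2), 0.012, 0.092 and 0.13 (Actg1), 0.18, 0.25 and 0.32 (Tagln), 0.12, 0.18 and 0.18 (Vcl) and 0.18, 0.26 and 0.33 (Pdlim5). With 1 library left out, the gene-body peak of Acta2 ran from -0.044 without normoxia 2 to 0.093 without normoxia 1, and that of Cnn1 from -0.095 without hypoxia 2 to 0.42 without hypoxia 1. With edgeR on recovered reads 27 of 27 kept direction and side of the threshold.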

Other observations

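A few weak peaks, picked after their values were seen, are given as values. At Actg1, a 300-bp peak beside the downstream peak (chr11:120340701-120341000) read 4.60 and 9.18 at 2% O2 and 1.50 and 0.667 at 21% O2, a log2 change of -1.55 (limma FDR 0.0204). At Cnn1, a 300-bp intron peak (chr9:22106501-22106800) read 5.66 and 1.36 against 0 and 0.334, a log2 change of -1.60. At Myl9, an intron peak of 600 bp (chr2:156777201-156777800) read 3.89 and 3.74 against 8.25 and 5.67 and had a log2 fold change of 1.10. None of these 3 was called, and each rests on few reads.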
